A study of Mus musculus with 18 samples.

Results

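The 48 genes described here encode proteins of autophagy and of the lysosome. They were picked by gene name from the 46983 rows of a table of TPM values (a gene's length-corrected share of all transcripts in a library) for skeletal muscle of mice, and all 48 were among the 12111 genes that passed the filter on low values. The 18 libraries came from 5 fasted MKO, 4 fasted WT, 5 fed MKO and 4 fed WT mice. In MKO mice (PGC-1β muscle-specific knockouts) both floxed PGC-1β alleles (loxP/loxP) were recombined in muscle fibers by Cre under the human skeletal actin promoter, which removes exons 4 to 6 and spares the other cell types of the tissue. WT mice carried the same loxP/loxP alleles without Cre. All were male, at least 10 weeks old and on the C57Bl6/J background, and the fasted mice of both genotypes had gone 24 h without food. The muscle is quadriceps by the labels and Gastrocnemius by the methods of the study.

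Autophagy encloses cytoplasm, protein aggregates or mitochondria in a double membrane and delivers them to the lysosome for breakdown. A kinase complex around ULK1 starts the process, a lipid kinase complex around PIK3C3 marks the forming membrane, WIPI, ATG2 and ATG9 proteins bring lipid to it, and an enzyme cascade resembling ubiquitination attaches the small Atg8-type proteins (LC3 and GABARAP) that cargo receptors bind. In fasted muscle the pathway is known as a source of amino acids, and much of its control is transcriptional, through factors of the FoxO and TFEB families.

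The makeup of the libraries differed with genotype. Transcripts of the mitochondrial genome took 61.5 to 67.9% of the TPM in fasted MKO and 70.8 to 81.3% in fasted WT muscle, and 67.3 to 70.4% in fed MKO and 74.3 to 74.95% in fed WT muscle. TPM are shares of a constant sum, and the median gene was higher by 0.32 on the log2 scale in fasted MKO than in fasted WT libraries and by 0.27 in fed MKO than in fed WT libraries, while fasting moved it by 0.05 in MKO and 0.0042 in WT muscle. Counts are therefore given as deposited and relative to the median gene of each library. The library of fasted WT mouse 4 stood apart, with the largest mitochondrial share and 10729 genes at or above 0.5 TPM, against 11180 to 11338 in the other fasted WT libraries. Set against the mean of fasted WT mice 1 to 3 and relative to the median gene, 19 of the 48 genes were higher in it, with a median difference of -0.03 (log2). Muscle fiber markers (10 of 10 detected) summed to between 30150 and 85696 TPM in every library, which fits the tissue label. Ppargc1b, which encodes PGC-1β, had 0.422 to 1.11 TPM in fasted MKO and 0.726 to 1.47 TPM in fasted WT muscle, and 1.76 to 2.35 TPM in fed MKO and 1.45 to 2.05 TPM in fed WT muscle. A TPM value covers the whole gene, so it does not check the deleted exons.

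**Figure D1:**
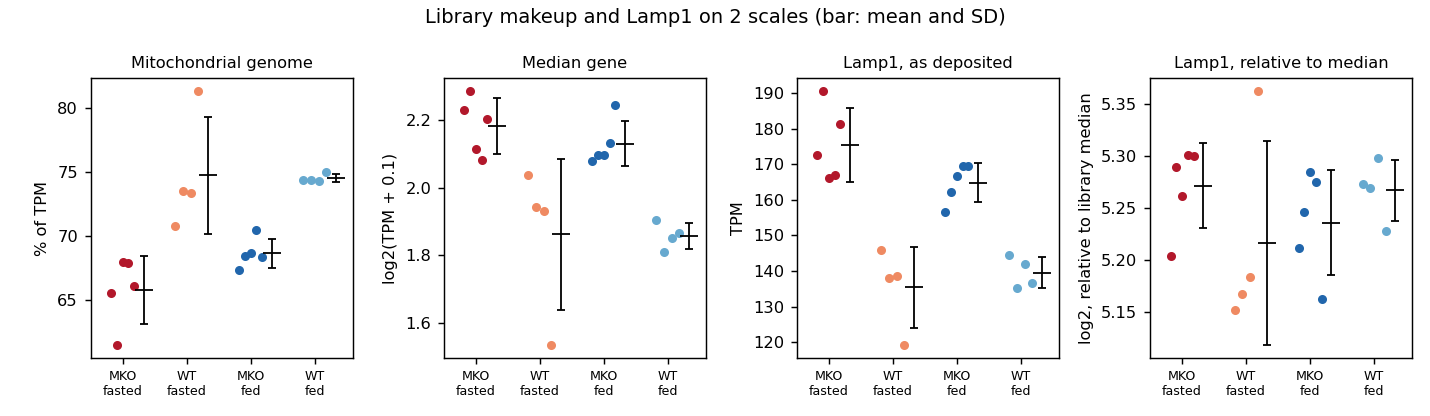
Mitochondrial share of the TPM (%), median gene (log2(TPM + 0.1)), and Lamp1 as deposited (TPM) and relative to the library median (log2), each point being 1 library and the bar the mean and SD of 5 fasted MKO, 4 fasted WT, 5 fed MKO and 4 fed WT libraries. Lamp1 averaged 176 ± 10.4 TPM in fasted MKO and 135 ± 11.4 TPM in fasted WT muscle as deposited, and the 2 genotypes overlap once each library is set to its median gene.

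The levels of the 48 genes spanned a wide range. Averaged over the 18 libraries of all 4 groups, which differ in these levels, Ctsd had 246, Pink1 245, Bnip3 195, Sqstm1 183 and Lamp1 156 TPM, whereas Park2 averaged 0.602 TPM and Tfe3, Atg7 and Pik3r4 stayed between 1.61 and 1.83 TPM. A fasting change was tested by limma on log2(TPM + 0.1) and called at an adjusted p under 0.05. The 48 genes were chosen with earlier results of these data known, so their counts beside the shares of all genes are descriptive. In MKO muscle 27 of the 48 genes rose and 2 fell with fasting, where 18.1% of all tested genes rose and 15.8% fell (33.8% called in all). In WT muscle 22 rose and 8 fell, where 15.3% of all tested genes rose and 20.7% fell (35.9% in all). Relative to the median gene the numbers were 27 up and 5 down in MKO (20.2% and 22.7% of all genes, 42.9% in all) and 25 up and 9 down in WT muscle (19.9% and 24.6%, 44.5% in all). As deposited, the median log2 change over the 48 genes was 0.34 in MKO and 0.27 in WT muscle, against 0.01 and -0.06 over all tested genes. On that scale all 22 genes that rose in WT were among the 27 that rose in MKO muscle. Relative to the median gene 24 of the 25 that rose in WT also rose in MKO muscle, all but Tfe3. All fasted libraries exceeded all fed libraries for 24 of the 48 genes in MKO and 16 in WT muscle, as for 17.2% and 8.14% of all tested genes. They all lay below for 1 gene in MKO and 4 in WT muscle, as for 12.8% and 17.9% of all tested genes. The difference between the genotypes was tested as an interaction and reached an adjusted p under 0.05 for none of the 48 genes.

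**Figure D2:**
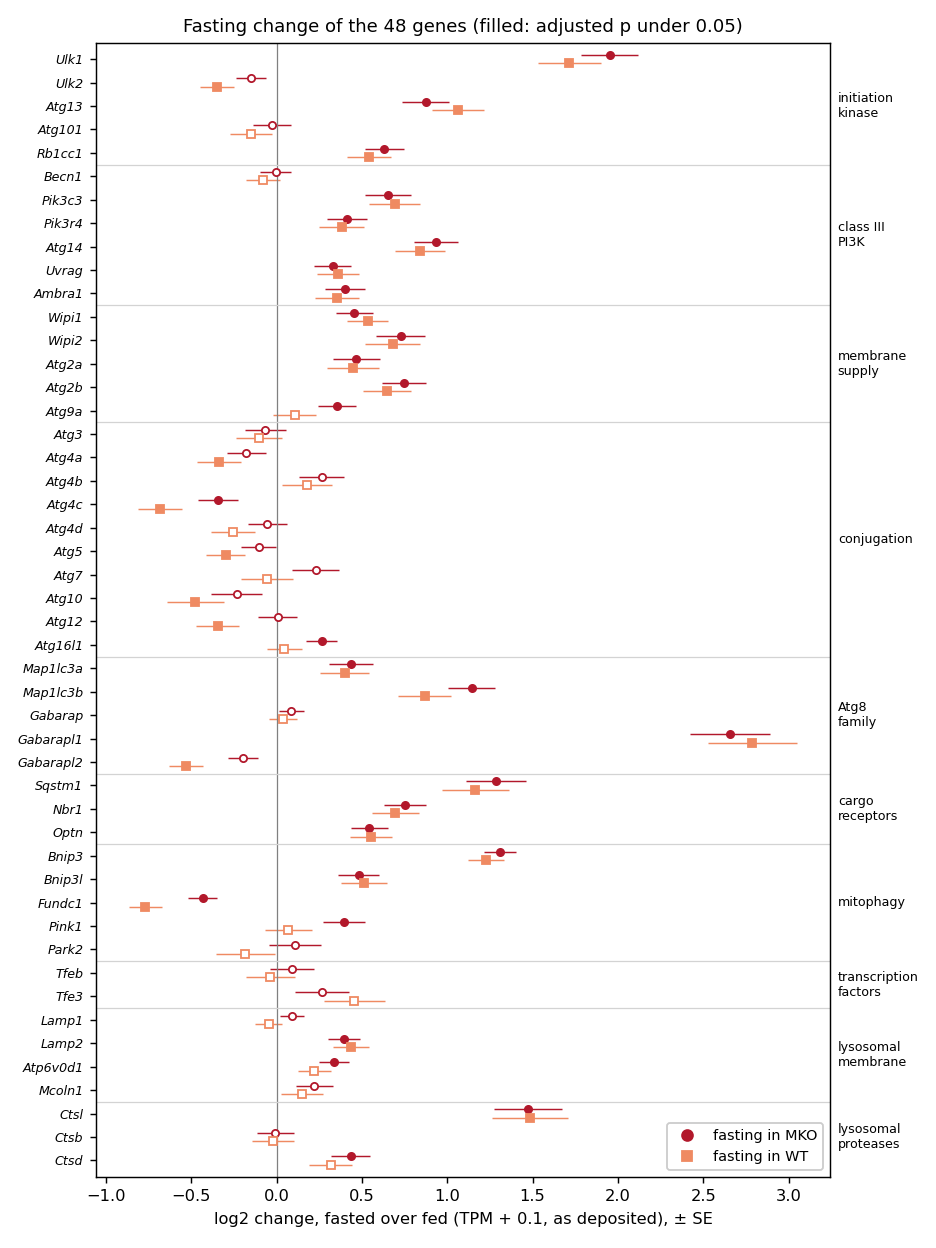
Log2 change of each of the 48 genes, fasted over fed, with its SE, as deposited, ordered by role, in MKO (circles) and WT muscle (squares), filled where the limma adjusted p was under 0.05. Gabarapl1, Ulk1, Ctsl, Bnip3 and Sqstm1 lie above 1 in both genotypes, and Fundc1 and Atg4c lie below 0 and are filled in both.

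To show the DNA next to the values, the 250 bases before the annotated transcript start are printed for 4 of the genes: Gabarapl1 and Bnip3, which rose with fasting in both genotypes, Ctsd, which rose in MKO muscle, and Lamp1, which was called in neither. Sequences are RefSeq's on GRCm38.p6, 5′ to 3′ on the strand of the gene, with the letters CACGTG (an E-box of the kind TFEB and TFE3 bind, the same on both strands) and TAAACA (a core that FoxO factors bind, searched on both strands) in capitals.
Gabarapl1 (chr6:129532942-129533191, plus strand): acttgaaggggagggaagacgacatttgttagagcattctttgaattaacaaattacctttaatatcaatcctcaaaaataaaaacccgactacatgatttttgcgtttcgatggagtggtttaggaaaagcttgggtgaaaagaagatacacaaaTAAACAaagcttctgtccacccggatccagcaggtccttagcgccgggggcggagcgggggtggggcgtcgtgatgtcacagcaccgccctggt
Bnip3 (chr7:138909507-138909756, minus strand): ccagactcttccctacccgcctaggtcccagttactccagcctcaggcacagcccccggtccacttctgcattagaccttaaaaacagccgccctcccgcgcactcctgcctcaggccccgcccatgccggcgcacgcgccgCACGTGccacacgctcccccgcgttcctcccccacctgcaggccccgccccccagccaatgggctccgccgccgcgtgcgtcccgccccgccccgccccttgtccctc
Ctsd (chr7:142387828-142388077, minus strand): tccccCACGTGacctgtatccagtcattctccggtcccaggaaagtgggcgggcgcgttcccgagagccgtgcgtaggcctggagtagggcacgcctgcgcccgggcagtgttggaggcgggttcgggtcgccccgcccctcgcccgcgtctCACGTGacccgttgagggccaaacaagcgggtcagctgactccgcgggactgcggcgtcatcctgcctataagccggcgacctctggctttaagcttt
Lamp1 (chr8:13158911-13159160, plus strand): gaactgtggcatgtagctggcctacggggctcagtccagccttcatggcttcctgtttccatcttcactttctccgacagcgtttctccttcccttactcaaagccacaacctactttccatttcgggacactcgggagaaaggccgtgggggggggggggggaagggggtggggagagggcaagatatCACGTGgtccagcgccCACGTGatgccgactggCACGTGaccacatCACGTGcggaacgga
Lamp1 held CACGTG 4 times between 61 and 15 bases before its start, Ctsd held it at 245 and 98 bases before and Bnip3 at 108, while Gabarapl1 held TAAACA at 94 bases before its start and no CACGTG. Windows of this length were found for 39 of the 48 genes (45 windows, since some genes have more than 1 start). CACGTG occurred in 8 of the 45 windows, in Atg3, Atg5, Atg7, Bnip3, Ctsd, Ctsl, Lamp1 and Mcoln1, against 6.02% of all 32851 promoter windows. TAAACA occurred in 4 windows, in Ambra1, Atg4a, Ctsl and Gabarapl1, against 12.0% of all windows. The longer form GTAAACA, which contains the FoxO core, was in none of the 45 windows, against 3.17% of all windows, both strands searched. In 4 windows (Atg7, Gabarap, Ctsl and 1 of Atg4a) the RefSeq start lay more than 100 bases from any GENCODE transcript start. These are matches of letters, not binding sites.

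Among the 5 subunits of the initiation kinase, Ulk1, Atg13 and Rb1cc1 rose with fasting in both genotypes. Ulk1 (chr5:110784488-110810097, minus strand) encodes the kinase itself and had, in replicate order, 71.9, 87.3, 48.1, 51.6 and 61.2 TPM in the fasted MKO libraries and 55.3, 53.3, 58.9 and 29.7 TPM in the fasted WT libraries, against 16.7, 16.2, 14.9, 15.9 and 16.8 TPM in the fed MKO libraries and 14.4, 13.5, 15.96 and 14.1 TPM in the fed WT libraries. Its lowest fasted value, in WT mouse 4, was still above its highest fed value. The log2 change, given throughout with its SE, was 1.95 ± 0.17 in MKO muscle (adjusted p = 4.84e-08) and 1.72 ± 0.19 in WT muscle (adjusted p = 1.19e-06). Atg13, a scaffold of the complex, had 21.6, 25.1, 17.5, 18.3 and 21.5 TPM in the fasted MKO libraries and 20.8, 23.6, 21.6 and 13.1 TPM in the fasted WT libraries, against 11.6, 11.5, 10.2, 11.9 and 11.04 TPM in the fed MKO libraries and 10.4, 8.10, 10.1 and 8.40 TPM in the fed WT libraries. Here too, all fasted libraries lay above all fed libraries of the same genotype. Atg13 changed by 0.87 ± 0.14 in MKO muscle (adjusted p = 7.92e-05) and 1.06 ± 0.15 in WT muscle (adjusted p = 2.93e-05) on the log2 scale. Rb1cc1 encodes FIP200, the long scaffold on which the complex assembles. It had 19.8, 24.1, 18.4, 23.04 and 23.6 TPM in the fasted MKO libraries and 20.1, 17.998, 18.5 and 12.2 TPM in the fasted WT libraries, against 13.4, 13.6, 14.6, 14.2 and 14.2 TPM in the fed MKO libraries and 12.1, 12.4, 10.9 and 11.1 TPM in the fed WT libraries. The MKO groups did not overlap, while WT fasted mouse 4 fell within the fed WT range, and the log2 change was 0.63 ± 0.11 in MKO muscle (adjusted p = 0.00034) and 0.54 ± 0.13 in WT muscle (adjusted p = 0.00275).

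Ulk2, the close relative of Ulk1, was lower in fasted than in fed WT muscle. It had 39.7, 36.99, 35.5, 39.03 and 40.5 TPM in the fasted MKO libraries and 32.7, 29.9, 31.4 and 23.3 TPM in the fasted WT libraries, against 44.4, 46.3, 40.6, 38.6 and 43.2 TPM in the fed MKO libraries and 36.2, 35.6, 39.5 and 37.1 TPM in the fed WT libraries. In fed muscle Ulk2 exceeded Ulk1, at 42.6 ± 3.04 against 16.1 ± 0.789 TPM in MKO and 37.1 ± 1.70 against 14.5 ± 1.07 TPM in WT (mean ± SD), and in fasted muscle Ulk1 exceeded Ulk2 in each of the 9 libraries. The change of Ulk2 was -0.15 ± 0.09 in MKO muscle (adjusted p = 0.207) and -0.35 ± 0.10 in WT muscle (adjusted p = 0.0102) as deposited, and -0.20 ± 0.07 in MKO muscle (adjusted p = 0.0207) and -0.35 ± 0.08 in WT muscle (adjusted p = 0.00095) relative to the median gene, so that the fall in MKO muscle was called relative to the median gene alone. In a limma fit of the WT groups alone, the fall of Ulk2 in WT muscle as deposited was not called (adjusted p = 0.0842). Atg101, the remaining subunit, was called in neither genotype (-0.03 in MKO and -0.15 in WT).

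Of the 6 genes of the class III lipid kinase complex, 5 rose in both genotypes on both scales. Among all tested genes 18.1% rose in MKO and 15.3% in WT muscle as deposited (20.2% and 19.9% relative to the median gene). Pik3c3, the catalytic subunit, had 6.27, 9.09, 6.88, 6.53 and 6.76 TPM in the fasted MKO libraries and 6.57, 5.74, 5.41 and 3.72 TPM in the fasted WT libraries, against 4.09, 4.33, 4.03, 4.76 and 5.12 TPM in the fed MKO libraries and 3.06, 3.45, 2.84 and 3.55 TPM in the fed WT libraries. Groups did not overlap in either genotype, and the change was 0.65 ± 0.13 in MKO muscle (adjusted p = 0.00109) and 0.69 ± 0.15 in WT muscle (adjusted p = 0.00142). Atg14, the subunit that directs the complex to forming autophagosomes, had 6.62, 7.91, 6.24, 5.89 and 6.21 TPM in the fasted MKO libraries and 5.49, 6.74, 5.90 and 3.61 TPM in the fasted WT libraries, against 3.73, 3.54, 3.05, 3.42 and 3.19 TPM in the fed MKO libraries and 2.99, 2.94, 3.001 and 2.75 TPM in the fed WT libraries. It changed by 0.93 ± 0.13 in MKO muscle (adjusted p = 2.03e-05) and 0.84 ± 0.14 in WT muscle (adjusted p = 0.000174), more than the other 5 genes of this group, with no overlap between fasted and fed libraries. Pik3r4 encodes the regulatory subunit VPS15 and is expressed at a low level, with 2.16, 2.91, 2.15, 2.33 and 2.43 TPM in the fasted MKO libraries and 1.95, 1.97, 1.70 and 1.36 TPM in the fasted WT libraries, against 1.63, 1.64, 1.73, 2.06 and 1.79 TPM in the fed MKO libraries and 1.37, 1.37, 1.14 and 1.36 TPM in the fed WT libraries. It rose by 0.41 ± 0.12 in MKO muscle (adjusted p = 0.0112) and 0.38 ± 0.13 in WT muscle (adjusted p = 0.0313), and 1 fasted WT library (mouse 4) lay inside the fed WT range. Uvrag, the subunit of the endosomal form of the complex, and Ambra1, a Beclin 1 partner, rose by 0.33 and 0.40 in MKO and by 0.36 and 0.35 in WT muscle. Becn1, the Beclin 1 gene, stood at 6.44 ± 0.181 TPM in fasted MKO and 6.47 ± 0.204 TPM in fed MKO muscle, and at 5.48 ± 0.893 TPM in fasted WT and 5.74 ± 0.238 TPM in fed WT muscle, and was not called for fasting in either. Exons of Cntd1 on the opposite strand cover 43.9% of the Becn1 exon bases, and Cntd1 was listed at no more than 0.26 TPM.

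The genes that supply membrane behaved similarly, with 5 of 5 rising in MKO and 4 of 5 in WT muscle. Among all tested genes 18.1% rose in MKO and 15.3% in WT muscle as deposited. Wipi2 encodes the PI3P-binding protein that recruits the conjugation machinery. It had 7.96, 9.89, 6.45, 6.57 and 8.72 TPM in the fasted MKO libraries and 7.21, 7.55, 6.91 and 4.10 TPM in the fasted WT libraries, against 4.63, 5.03, 4.37, 4.43 and 5.003 TPM in the fed MKO libraries and 3.79, 3.82, 3.88 and 4.0002 TPM in the fed WT libraries. All fasted libraries were higher than all fed libraries of the genotype, and the change was 0.73 ± 0.14 in MKO muscle (adjusted p = 0.000732) and 0.68 ± 0.16 in WT muscle (adjusted p = 0.00268). Wipi1, its homolog, had 26.8, 29.1, 21.7, 20.5 and 26.2 TPM in the fasted MKO libraries and 24.6, 21.2, 19.6 and 20.3 TPM in the fasted WT libraries, against 16.7, 15.7, 20.6, 18.1 and 19.01 TPM in the fed MKO libraries and 15.5, 12.8, 15.4 and 15.3 TPM in the fed WT libraries. The 2 MKO groups overlapped by a small margin at 20.5 TPM in the fasted and 20.6 TPM in the fed group, and the change was 0.46 ± 0.11 in MKO muscle (adjusted p = 0.00314) and 0.53 ± 0.12 in WT muscle (adjusted p = 0.0019). Atg2b, 1 of the 2 lipid transfer proteins, had 6.50, 9.05, 5.52, 6.70 and 7.27 TPM in the fasted MKO libraries and 5.997, 5.40, 5.89 and 3.85 TPM in the fasted WT libraries, against 4.02, 3.98, 4.04, 3.86 and 4.55 TPM in the fed MKO libraries and 3.51, 3.05, 3.47 and 3.14 TPM in the fed WT libraries, with no overlap and a change of 0.75 ± 0.13 in MKO muscle (adjusted p = 0.000187) and 0.65 ± 0.14 in WT muscle (adjusted p = 0.00152). Its paralog Atg2a rose by 0.47 in MKO and 0.45 in WT muscle. For Atg9a, the transmembrane lipid scramblase, the change was 0.35 ± 0.11 in MKO muscle (adjusted p = 0.0192) and 0.10 ± 0.12 in WT muscle (adjusted p = 0.539), so that it rose in MKO muscle and was not called in WT, and its interaction was 0.25 ± 0.17 (adjusted p = 0.713).

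The conjugation enzymes gave other counts. None of the 10 rose in WT muscle and 5 fell (6 relative to the median gene), and in MKO muscle 1 rose and 1 fell (1 and 2). Of all tested genes 15.3% rose and 20.7% fell in WT muscle (19.9% and 24.6% relative to the median gene). In MKO muscle 18.1% rose and 15.8% fell (20.2% and 22.7%), so the MKO counts of the 10 enzymes were near these shares. The median log2 change of the 10 genes was -0.06 in MKO and -0.28 in WT muscle. Atg4c, a protease that trims Atg8 proteins, had 3.61, 2.59, 2.71, 2.93 and 3.66 TPM in the fasted MKO libraries and 2.01, 2.48, 2.07 and 1.74 TPM in the fasted WT libraries, against 3.46, 3.98, 3.77, 3.91 and 4.58 TPM in the fed MKO libraries and 3.21, 3.63, 3.25 and 3.41 TPM in the fed WT libraries. Every fasted WT library lay below every fed WT library, and the MKO groups overlapped. Its change was -0.34 ± 0.12 in MKO muscle (adjusted p = 0.0267) and -0.69 ± 0.13 in WT muscle (adjusted p = 0.000412). The other genes that fell in WT muscle were Atg10 (the E2-like enzyme for Atg12), Atg12 (the ubiquitin-like modifier), Atg4a (a protease) and Atg5 (the target of Atg12), with log2 changes of -0.48, -0.35, -0.34 and -0.30 and adjusted p between 0.0304 and 0.0488. Each of these 4 calls was lost as deposited without any 1 of 4 to 14 libraries, with an adjusted p of up to 0.138. Their changes in MKO muscle were -0.23, 0.01, -0.18 and -0.11, of which Atg4a alone was called, relative to the median gene, at -0.23 ± 0.08 (adjusted p = 0.03). Of the Atg4a 75-base stretches, 41.3% also occur in the pseudogene Atg4a-ps, so its value is uncertain. Atg4d, another protease of this family, was called in WT muscle relative to the median gene alone, at -0.26 ± 0.10 (adjusted p = 0.0498). Atg16l1, which positions the Atg12-Atg5 conjugate on the membrane, rose in MKO muscle by 0.26 ± 0.09 (adjusted p = 0.0304) and changed by 0.04 ± 0.10 (adjusted p = 0.768) in WT. Atg3, Atg4b and Atg7, which are the E2-like enzyme, a protease and the E1-like enzyme, were called in neither genotype, with changes between -0.10 and 0.26.

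Within the Atg8 family, Gabarapl1 (chr6:129533160-129542346, plus strand) had the largest fasting change of the 48 genes. It had 109, 243, 76.6, 68.99 and 114 TPM in the fasted MKO libraries and 95.2, 92.2, 87.3 and 67.4 TPM in the fasted WT libraries, against 15.1, 15.2, 18.3, 23.02 and 16.2 TPM in the fed MKO libraries and 13.5, 10.8, 12.8 and 11.8 TPM in the fed WT libraries. The fasted libraries were several times higher than all fed libraries, and MKO mouse 2 was far above the other fasted MKO mice. The log2 change was 2.65 ± 0.23 in MKO muscle (adjusted p = 7.2e-08) and 2.79 ± 0.26 in WT muscle (adjusted p = 2.05e-07), which is 6.3-fold in MKO and 6.91-fold in WT muscle on the log2(TPM + 0.1) scale. The opposite strand holds 1700101I11Rik over 28.3% of the Gabarapl1 exon bases, which was listed at no more than 0.964 TPM. Map1lc3b, which encodes LC3B, had 14.4, 20.1, 10.6, 13.5 and 14.2 TPM in the fasted MKO libraries and 10.9, 9.63, 12.6 and 7.91 TPM in the fasted WT libraries, against 5.57, 6.25, 6.42, 6.45 and 7.46 TPM in the fed MKO libraries and 5.49, 5.66, 5.60 and 5.21 TPM in the fed WT libraries. It rose without overlap, by 1.14 ± 0.14 in MKO muscle (adjusted p = 5e-06) and 0.87 ± 0.16 in WT muscle (adjusted p = 0.000273). Map1lc3a, the more abundant LC3 gene, averaged 76.9 ± 16.9 TPM in fasted MKO and 56.1 ± 7.03 TPM in fed MKO muscle, and 68.1 ± 8.27 TPM in fasted WT and 51.5 ± 4.35 TPM in fed WT muscle, and changed by 0.44 ± 0.13 in MKO muscle (adjusted p = 0.0137) and 0.40 ± 0.15 in WT muscle (adjusted p = 0.0388).

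Gabarap and Gabarapl2 did not rise. Gabarap changed by 0.08 in MKO and 0.04 in WT muscle and was called in neither. Gabarapl2 (GATE-16) had 15.2, 15.4, 14.9, 15.5 and 16.1 TPM in the fasted MKO libraries and 11.4, 11.2, 12.2 and 9.62 TPM in the fasted WT libraries, against 18.9, 20.8, 17.3, 16.01 and 15.9 TPM in the fed MKO libraries and 17.03, 16.6, 16.3 and 14.4 TPM in the fed WT libraries. The fasted WT values all lay below the fed WT values, whereas the MKO groups overlapped. The change was -0.20 ± 0.09 in MKO muscle (adjusted p = 0.0964) and -0.53 ± 0.10 in WT muscle (adjusted p = 0.000397) as deposited and -0.25 ± 0.09 in MKO muscle (adjusted p = 0.0327) and -0.54 ± 0.10 in WT muscle (adjusted p = 0.000328) relative to the median gene, and the interaction was 0.34 ± 0.13 (adjusted p = 0.455) as deposited. Of the summed TPM of the family, Gabarapl1 took 36.9 ± 8.99% in fasted MKO and 9.95 ± 2.16% in fed MKO muscle (SD, n = 5 each), and 35.03 ± 1.34% in fasted WT and 8.04 ± 0.468% in fed WT muscle (SD, n = 4 each). The share of Gabarap was 28.2 ± 5.73% in fasted MKO and 44.8 ± 2.39% in fed MKO muscle, and 28.3 ± 1.18% in fasted WT and 43.9 ± 1.67% in fed WT muscle.

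**Figure D3:**
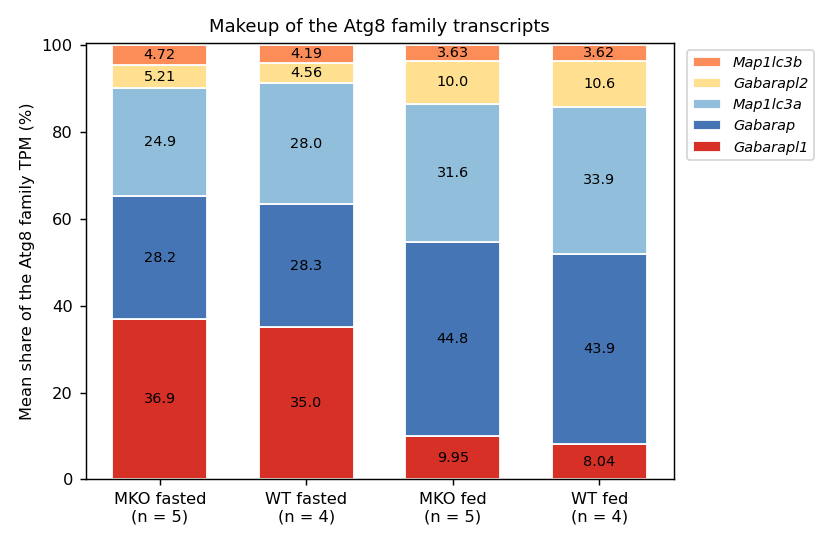
Mean share (%) of each of the 5 Atg8 family genes in the summed TPM of the family, in 5 fasted MKO, 4 fasted WT, 5 fed MKO and 4 fed WT libraries. Gabarapl1 makes up 36.9 and 35.03% of the bar in the fasted groups and 9.95 and 8.04% in the fed groups.

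All 3 cargo receptors rose in both genotypes on both scales. Among all tested genes 18.1% rose in MKO and 15.3% in WT muscle as deposited (20.2% and 19.9% relative to the median gene). Sqstm1 (chr11:50199366-50210827, minus strand) encodes p62, the receptor for ubiquitinated cargo, and had 329, 347, 224, 237 and 305 TPM in the fasted MKO libraries and 275, 261, 238 and 120.3 TPM in the fasted WT libraries, against 119, 107, 118, 117 and 123 TPM in the fed MKO libraries and 83.2, 108, 100.02 and 90.5 TPM in the fed WT libraries. The fasted libraries were all above the fed ones of their genotype, with WT mouse 4 the lowest of the fasted. The change was 1.29 ± 0.18 in MKO muscle (adjusted p = 1.79e-05) and 1.16 ± 0.20 in WT muscle (adjusted p = 0.000147). Nbr1, a receptor related to p62, had 22.7, 30.2, 20.6, 22.4 and 24.2 TPM in the fasted MKO libraries and 21.4, 20.4, 20.6 and 12.9 TPM in the fasted WT libraries, against 13.6, 13.3, 14.04, 14.8 and 15.05 TPM in the fed MKO libraries and 11.6, 11.95, 10.6 and 11.3 TPM in the fed WT libraries, and rose by 0.75 ± 0.12 in MKO muscle (adjusted p = 0.00013) and 0.70 ± 0.14 in WT muscle (adjusted p = 0.000656). Optn encodes optineurin, which links ubiquitinated mitochondria and bacteria to LC3. It had 26.2, 33.5, 27.97, 28.02 and 31.8 TPM in the fasted MKO libraries and 28.7, 23.8, 22.96 and 17.6 TPM in the fasted WT libraries, against 21.1, 18.5, 22.4, 19.5 and 19.5 TPM in the fed MKO libraries and 14.97, 16.7, 15.8 and 15.01 TPM in the fed WT libraries. For Nbr1 and Optn as well, fasted and fed libraries of a genotype did not overlap. Optn rose by 0.54 ± 0.11 in MKO muscle (adjusted p = 0.000851) and 0.55 ± 0.12 in WT muscle (adjusted p = 0.00161).

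The 5 mitophagy genes did not move together. Bnip3 (chr7:138890836-138909519, minus strand), a receptor in the outer mitochondrial membrane, had 291, 335, 240.1, 263 and 332 TPM in the fasted MKO libraries and 256, 289.9, 257 and 222 TPM in the fasted WT libraries, against 113, 118, 120.0, 114 and 119.8 TPM in the fed MKO libraries and 104, 112, 112 and 107 TPM in the fed WT libraries. The fasted and fed ranges lay far apart in both genotypes. With a log2 change of 1.31 ± 0.09 in MKO muscle (adjusted p = 4.7e-09) and 1.23 ± 0.10 in WT muscle (adjusted p = 4.92e-08), Bnip3 had the smallest adjusted p of the 48 genes in both fasting comparisons as deposited. Of its 75-base stretches, 34.4% also occur in transcripts of other genes, and 16.9% of those of Bnip3l occur in the pseudogene Bnip3l-ps. Its homolog Bnip3l (NIX) had 44.003, 51.8, 36.7, 40.9 and 42.1 TPM in the fasted MKO libraries and 42.7, 43.7, 37.9 and 25.8 TPM in the fasted WT libraries, against 31.7, 32.2, 29.2, 29.1 and 31.2 TPM in the fed MKO libraries and 27.8, 26.2, 24.97 and 24.3 TPM in the fed WT libraries. The fasted WT range reached down to the fed range through mouse 4 alone, and the change was 0.48 ± 0.12 in MKO muscle (adjusted p = 0.00475) and 0.51 ± 0.13 in WT muscle (adjusted p = 0.00601). Fundc1 (chrX:17556564-17572325, minus strand), also a receptor of the outer membrane, moved the opposite way and had 13.8, 10.8, 12.1, 12.2 and 14.2 TPM in the fasted MKO libraries and 9.51, 8.9996, 9.42 and 8.73 TPM in the fasted WT libraries, against 17.98, 17.2, 16.7, 16.6 and 16.7 TPM in the fed MKO libraries and 17.4, 16.1, 14.4 and 15.04 TPM in the fed WT libraries. Fasted libraries of both genotypes lay below all fed libraries. Fundc1 fell, with a log2 change of -0.43 ± 0.08 in MKO muscle (adjusted p = 0.000628) and -0.77 ± 0.09 in WT muscle (adjusted p = 4.7e-06), and its interaction of 0.34 ± 0.13 (adjusted p = 0.435) had the smallest adjusted p of the 48 genes as deposited.

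Pink1 and Park2 encode the kinase and the ubiquitin ligase that mark damaged mitochondria. Pink1 averaged 304 ± 37.05 TPM in fasted MKO and 232 ± 28.01 TPM in fed MKO muscle, and 223 ± 43.97 TPM in fasted WT and 211 ± 26.6 TPM in fed WT muscle. It changed by 0.39 ± 0.12 in MKO muscle (adjusted p = 0.019) and 0.07 ± 0.14 in WT muscle (adjusted p = 0.728), and the interaction was 0.32 ± 0.18 (adjusted p = 0.649). Park2 stayed between 0.46 and 0.769 TPM in all 18 libraries and was not called.

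**Figure D4:**
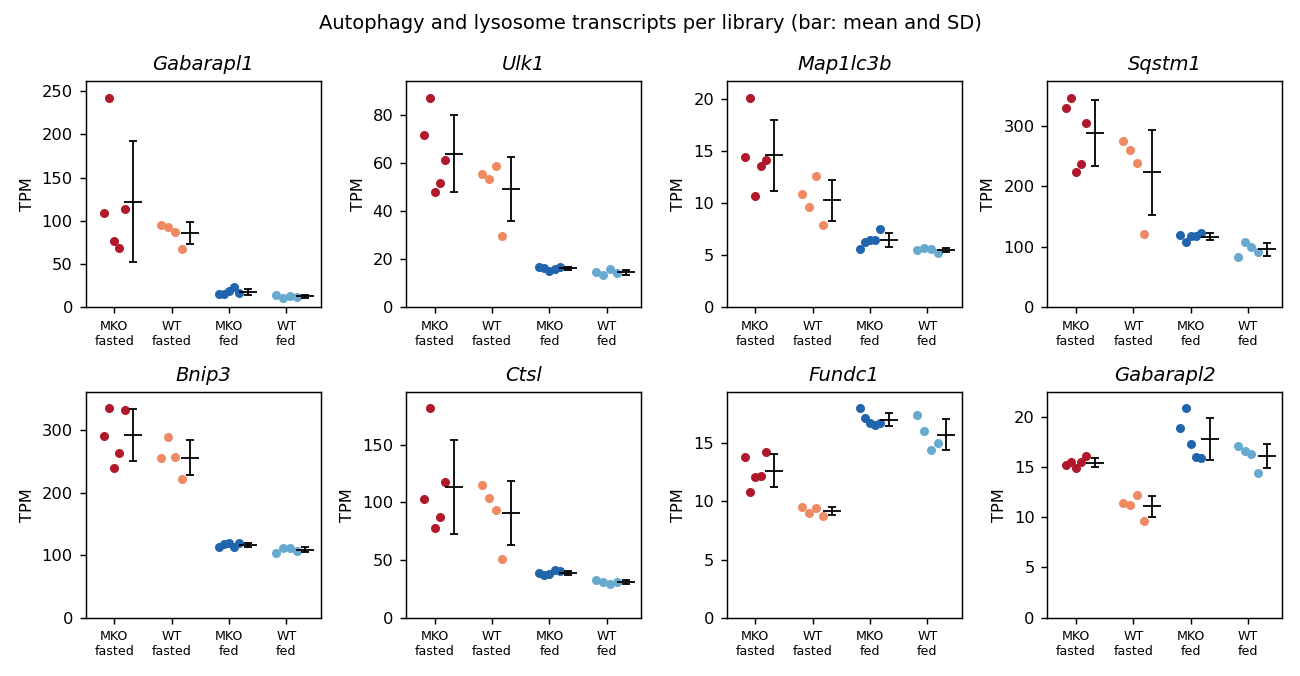
TPM of 8 of the genes in each library (points), with the mean and SD of each group (bars), for 5 fasted MKO, 4 fasted WT, 5 fed MKO and 4 fed WT libraries. The fasted groups are above the fed groups of their genotype for Gabarapl1, Ulk1, Map1lc3b, Sqstm1, Bnip3 and Ctsl, and below them for Fundc1, whereas for Gabarapl2 the fasted WT group alone is clear of the fed groups.

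Tfeb and Tfe3 encode transcription factors of lysosomal genes, and as deposited neither was called. Tfeb averaged 11.8 ± 1.23 TPM in fasted MKO and 11.1 ± 0.703 TPM in fed MKO muscle, and 10.05 ± 2.37 TPM in fasted WT and 10.1 ± 1.11 TPM in fed WT muscle. Tfe3 had 1.94, 1.98, 1.74, 1.45 and 1.78 TPM in the fasted MKO libraries and 2.03, 2.24, 1.97 and 1.25 TPM in the fasted WT libraries, against 1.43, 1.498, 1.22, 1.28 and 1.91 TPM in the fed MKO libraries and 1.46, 0.973, 1.37 and 1.502 TPM in the fed WT libraries. The groups overlapped in both genotypes. Its change was 0.27 ± 0.16 in MKO muscle (adjusted p = 0.211) and 0.46 ± 0.18 in WT muscle (adjusted p = 0.0532) as deposited and 0.21 ± 0.12 in MKO muscle (adjusted p = 0.147) and 0.45 ± 0.13 in WT muscle (adjusted p = 0.00818) relative to the median gene, a rise in WT muscle on that scale.

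Among the lysosomal membrane genes, Lamp2 rose in both genotypes. It encodes a glycoprotein of the lysosomal membrane of which 1 isoform is the receptor of chaperone-mediated autophagy, and it had 25.3, 26.7, 26.8, 26.3 and 30.4 TPM in the fasted MKO libraries and 26.7, 27.2, 29.4 and 21.6 TPM in the fasted WT libraries, against 20.98, 20.99, 17.6, 20.3 and 23.2 TPM in the fed MKO libraries and 20.1, 18.3, 18.2 and 20.5 TPM in the fed WT libraries. Fasted and fed libraries did not overlap in either genotype, and the change was 0.40 ± 0.09 in MKO muscle (adjusted p = 0.00306) and 0.44 ± 0.10 in WT muscle (adjusted p = 0.00299). Atp6v0d1, a subunit of the proton pump, had 31.9, 31.9, 28.2, 28.7 and 31.5 TPM in the fasted MKO libraries and 24.2, 23.6, 22.5 and 18.6 TPM in the fasted WT libraries, against 21.7, 26.1, 22.5, 24.1 and 26.4 TPM in the fed MKO libraries and 18.2, 19.1, 19.5 and 19.1 TPM in the fed WT libraries. It rose in MKO muscle without overlap, and in WT muscle WT mouse 4 lay inside the fed range. The change was 0.34 ± 0.09 in MKO muscle (adjusted p = 0.00549) and 0.22 ± 0.10 in WT muscle (adjusted p = 0.0817) as deposited and, in WT muscle relative to the median gene, 0.22 ± 0.06 (adjusted p = 0.00959). Lamp1, the most abundant gene of the group, changed by 0.09 in MKO and -0.05 in WT muscle and Mcoln1, a lysosomal cation channel, by 0.22 and 0.15, and both were called in neither.

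Of the 3 lysosomal proteases, Ctsl responded most. Ctsl (chr13:64359337-64370890, minus strand), a cysteine protease, had 103, 181, 77.8, 87.3 and 118 TPM in the fasted MKO libraries and 115, 104, 93.6 and 51.2 TPM in the fasted WT libraries, against 39.1, 36.7, 38.1, 41.2 and 40.3 TPM in the fed MKO libraries and 32.8, 31.2, 29.5 and 30.6 TPM in the fed WT libraries. No fasted library overlapped the fed range, and WT mouse 4 was again the lowest of the fasted mice. The change was 1.47 ± 0.20 in MKO muscle (adjusted p = 1.52e-05) and 1.49 ± 0.22 in WT muscle (adjusted p = 4.24e-05). Ctsd, the aspartic protease cathepsin D, had 340.2, 364, 266, 283 and 317 TPM in the fasted MKO libraries and 245, 270.0, 260.2 and 174 TPM in the fasted WT libraries, against 209, 214, 237, 240.4 and 258 TPM in the fed MKO libraries and 176, 187, 204 and 185 TPM in the fed WT libraries. It rose in MKO muscle without overlap, while in WT muscle fasted mouse 4 lay below all fed libraries and the other 3 above them. The change was 0.43 ± 0.11 in MKO muscle (adjusted p = 0.0062) and 0.32 ± 0.13 in WT muscle (adjusted p = 0.0582) as deposited and 0.31 ± 0.08 (adjusted p = 0.0044) in WT muscle relative to the median gene. Ctsb, also a cysteine protease, changed by -0.01 in MKO and -0.02 in WT muscle and was called in neither. Exons of Fdft1 on the opposite strand, at a mean of 33.9 TPM, cover 12.8% of its exon bases, Gm47123 on the opposite strand covers 26.8% of those of Ctsl, and Gm49369 on the same strand 34.4% of those of Ctsd. No source used here says whether strand was used in counting. Lysosomal transcripts are also abundant in macrophages. The 10 macrophage markers, none of them at 0 in all libraries, summed to 102 to 168 TPM in fasted MKO and 101.3 to 245.5 TPM in fed MKO muscle, and to 90.4 to 132 TPM in fasted WT and 46.1 to 116 TPM in fed WT muscle. As deposited none of the 10 rose with fasting in either genotype, and 1 fell in MKO muscle (2 relative to the median gene). As deposited, 18.1% of all tested genes rose and 15.8% fell in MKO, and 15.3% rose and 20.7% fell in WT muscle. The part of macrophages in the values above was not tested. In a whole muscle, fewer cells of a type and less RNA per cell cannot be told apart.

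Between the genotypes the result depended on the scale. In fasted muscle as deposited, 26 of the 48 genes were higher in MKO than in WT muscle and none was lower, where 38.9% of all tested genes were higher and 0.528% lower (39.4% called in all). At an unadjusted p under 0.05, 35 were higher and none lower by limma, where 50.9% of all tested genes passed in either direction. The median log2 change was 0.36 over the 48 genes and 0.31 over all tested genes, close to the shift of 0.32 of the median gene. All fasted MKO libraries exceeded all fasted WT libraries for 17 of the 48, as for 22.6% of all tested genes. Relative to the median gene none of the 48 was higher and 1 was lower, where 2.64% of all tested genes were higher and 2.54% lower (5.19% in all), and an unadjusted p under 0.05 was reached by 3 genes in each direction and by 20.9% of all tested genes. The median change was then 0.04. Without fasted WT mouse 4, the library with the largest mitochondrial share, 14 genes instead of 26 were higher as deposited. When TPM were recomputed without the genes of the mitochondrial genome none of the 48 was higher and 4 were lower in MKO muscle.

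**Figure D5:**
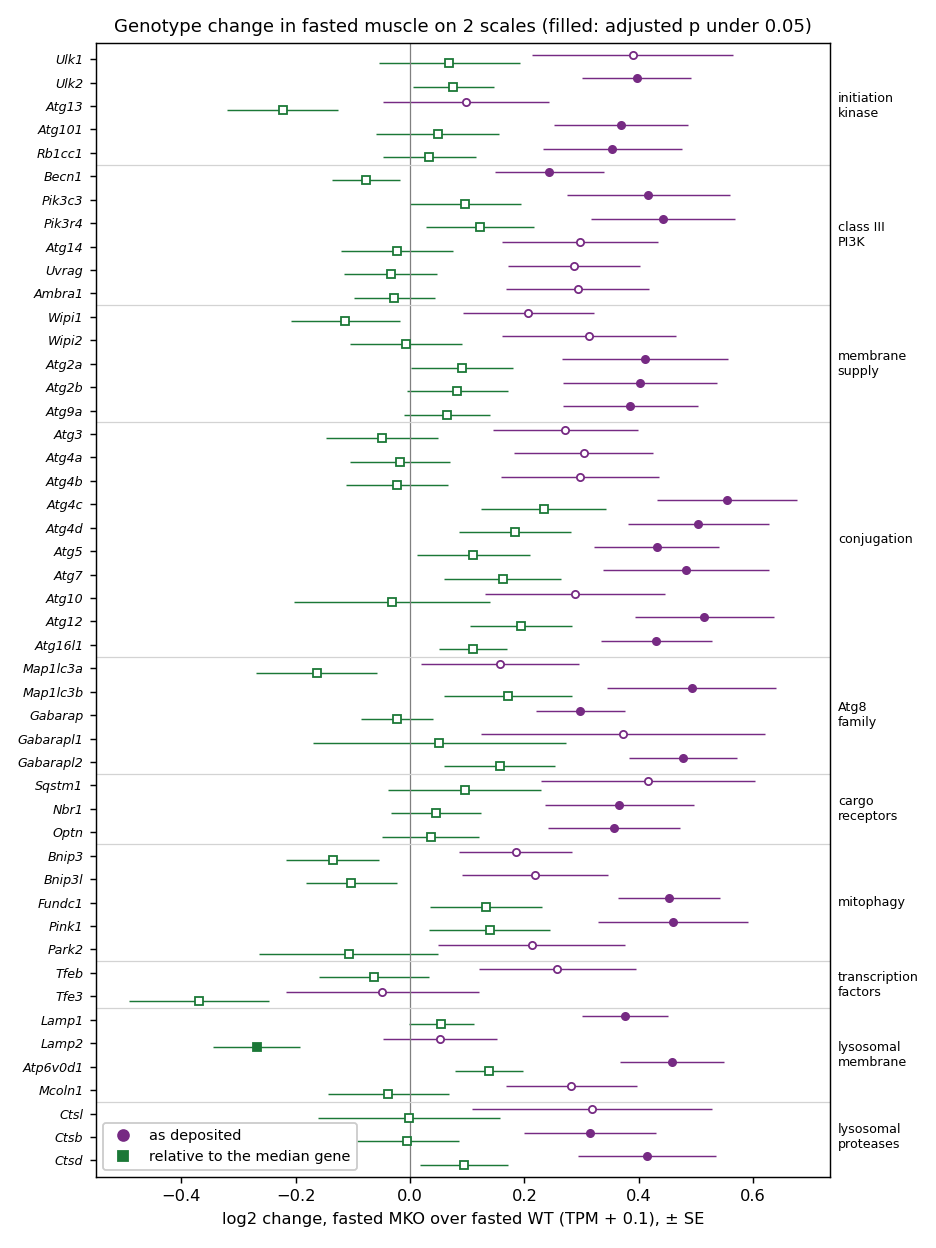
Log2 change of each of the 48 genes, fasted MKO over fasted WT, with its SE, as deposited (circles) and relative to the median gene of each library (squares), filled where the limma adjusted p was under 0.05. As deposited 47 of the 48 values are above 0 and 26 are filled; relative to the median gene 26 are above 0 and Lamp2 alone is filled.

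By role, 6 of the 10 conjugation enzymes were higher in fasted MKO muscle as deposited, where 26 of the 48 genes and 38.9% of all tested genes were higher. These enzymes were Atg4c, Atg4d, Atg5, Atg7, Atg12 and Atg16l1, with log2 changes of 0.55, 0.50, 0.43, 0.48, 0.52 and 0.43. Atg4c averaged 3.10 ± 0.503 TPM in fasted MKO and 2.07 ± 0.306 TPM in fasted WT muscle, and Atg12 16.01 ± 1.19 and 11.3 ± 2.26 TPM. Their values did not overlap between the genotypes. Relative to the median gene Atg4c differed by 0.23 ± 0.11 (limma adjusted p = 0.227) and Atg12 by 0.19 ± 0.09 (adjusted p = 0.22), and none of the 10 enzymes was called. The median over the 10 enzymes was 0.43 as deposited and 0.11 relative to the median gene, against 0.31 and -0.0088 over all tested genes. For genes with a large fasting change the genotype values relative to the median gene were 0.05 ± 0.22 (adjusted p = 0.929) for Gabarapl1, 0.07 ± 0.12 (adjusted p = 0.804) for Ulk1, -0.0021 ± 0.16 (adjusted p = 0.997) for Ctsl and -0.14 ± 0.08 (adjusted p = 0.361) for Bnip3. Lamp2 was the exception of the 48. It changed by 0.05 ± 0.10 (adjusted p = 0.683) as deposited and by -0.27 ± 0.08 (adjusted p = 0.0498) relative to the median gene, and this call was lost on leaving out any of 15 of the 18 libraries. On the log2 scale relative to the library median, Lamp2 stood at 2.44, 2.46, 2.63, 2.64 and 2.73 in fasted MKO and at 2.71, 2.83, 2.95 and 2.91 in fasted WT libraries, so 1 MKO library reached into the WT range.

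In fed muscle 1 of the 48 genes, Atp6v0d1, was higher in MKO than in WT muscle as deposited and none was lower, where 4.87% of all tested genes were higher and 0.182% lower (5.05% in all). Atp6v0d1 differed by 0.34 ± 0.09 (adjusted p = 0.0406) as deposited and 0.07 ± 0.06 (adjusted p = 0.682) relative to the median gene. Its 5 fed MKO libraries, listed above, all exceeded the 4 fed WT libraries, which was so for 21 of the 48 genes and for 26.8% of all tested genes. Without fasted WT mouse 4, which enters through the shared estimate of the spread, 20 genes were called, without fasted WT mouse 1 there were 6, and without any 1 of 9 other libraries there was none. At an unadjusted p under 0.05, 18 genes were higher and none lower by limma, where 36.7% of all tested genes passed in either direction. The median log2 change of 0.24 over the 48 genes stood beside 0.25 over all tested genes. Relative to the median gene limma called none of the 48, where 0.289% of all tested genes were higher and 0.809% lower (1.1% in all), and 2 were lower and none higher at an unadjusted p under 0.05, which 12.2% of all tested genes reached.

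The interaction asked whether the fasting change differed between MKO and WT muscle. None of the 48 genes was called on either scale. Of all tested genes, 0.033% were called as deposited and 0.116% relative to the median gene (0.0908% above 0 and 0.0248% below 0). At an unadjusted p under 0.05 limma found 2 genes with an interaction above 0 and none below 0, on each scale. Of all tested genes, 9.1% passed as deposited and 11.5% relative to the median gene. An interaction above 0 can also mean a smaller fall in MKO muscle. As deposited, Fundc1 changed by -0.43 in MKO and -0.77 in WT muscle, and Gabarapl2 by -0.20 and -0.53. The median of the 48 interactions was 0.09 as deposited and 0.04 relative to the median gene, against 0.06 and 0.01 over all tested genes. For Gabarapl1 the difference was -0.13 ± 0.35 (adjusted p = 0.947), for Ulk1 0.24 ± 0.25 (adjusted p = 0.842), for Bnip3 0.08 ± 0.14 (adjusted p = 0.91) and for Ctsl -0.01 ± 0.30 (adjusted p = 0.996). The largest value was that of Atg12 with 0.35 ± 0.17 (adjusted p = 0.556), followed by Atg4c, Gabarapl2 and Fundc1 at 0.34, 0.34 and 0.34, genes that fell in WT muscle. A difference that misses the threshold in groups of 4 and 5 does not show that the genotypes responded alike.

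Other genes of the pathway were taken from 4 lists by function, whose counts stand against 18.1% of all tested genes that rose and 15.8% that fell in MKO, and 15.3% and 20.7% in WT muscle (relative to the median gene 20.2% and 22.7%, and 19.9% and 24.6%). Of 34 further genes of autophagosome formation and fusion, 19 rose and none fell in MKO and 16 rose and 2 fell in WT muscle, with median log2 changes of 0.40 and 0.37. With each library set to its median gene, 19 rose and 1 fell in MKO and 21 rose and 3 fell in WT muscle. Fam134b, a receptor for autophagy of the endoplasmic reticulum, averaged 458 ± 107 TPM in fasted MKO and 69.5 ± 6.73 TPM in fed MKO muscle, and 428 ± 129 TPM in fasted WT and 54.03 ± 5.61 TPM in fed WT muscle (SD). Its log2 change was 2.69 ± 0.18 in MKO (limma adjusted p = 2.51e-09) and 2.93 ± 0.20 in WT muscle (adjusted p = 3.32e-09). Zfyve1, whose product DFCP1 marks the membrane where autophagosomes form, rose by 1.98 ± 0.21 in MKO and 1.996 ± 0.24 in WT muscle. Of 37 lysosomal hydrolases 6 rose and 5 fell in MKO and 3 rose and 6 fell in WT muscle, with medians of -0.10 and -0.09, against 0.01 and -0.06 over all tested genes. On the scale of the median gene 9 rose and 9 fell in MKO and 7 rose and 9 fell in WT muscle. Ctsf rose by 0.60 ± 0.12 in MKO (limma adjusted p = 0.000975) and 0.59 ± 0.14 in WT muscle (adjusted p = 0.00239). The acid alpha-glucosidase gene Gaa rose in MKO muscle by 0.82 ± 0.17 (123 ± 18.4 TPM in fasted against 69.4 ± 4.34 TPM in fed MKO muscle). Ctsc, which activates serine proteases, fell in WT muscle by 0.81 on the log2 scale. Gaa in WT and Ctsc in MKO muscle are not described here, so these values do not compare the genotypes. Of 38 further genes of the lysosomal membrane and its acidification 8 rose and 2 fell in MKO and 5 rose and 5 fell in WT muscle, and relative to the median gene 8 rose and 6 fell in MKO and 8 rose and 7 fell in WT muscle. The cholesterol exporter gene Npc1 rose by 2.05 ± 0.24 in MKO and 1.82 ± 0.27 in WT muscle. Of 23 regulators 10 rose and 2 fell in each genotype, and relative to the median gene 10 rose and 4 fell in MKO and 10 rose and 5 fell in WT muscle. Among those that rose were the mTORC1 inhibitor genes Ddit4 (5.15 ± 0.37 in MKO and 4.03 ± 0.41 in WT muscle) and Sesn1 (2.58 ± 0.23 and 2.58 ± 0.25).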

How the data were processed

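RNA-seq of muscle from 18 mice was analysed. Per the labels and the methods of the study, poly(A) RNA was sequenced as single reads mapped to the mouse genome (GRCm38, mm10) and analysed in the CLC Genomics Workbench; no source used here names its version or its annotation, strand and multi-mapping settings. The authors deposited TPM per gene and library, which hold no read depth, so no counting interval or limit of detection can be given. Their own fold changes and p-values were not used. Identifiers of 46488 of 46983 genes matched the GRCm38 annotation of GENCODE.

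Genes that reached 0.5 TPM in 4 or more libraries entered limma 3.58.1 (R 4.3.3) on the scale log2(TPM + 0.1): 1 fit of 4 group means over all 18 libraries, eBayes with trend, two-sided, Benjamini-Hochberg adjustment over 12111 genes, with 14 residual and 5.38 prior degrees of freedom (4.22 relative to the median gene). Fold changes on this scale understate those of low genes. Each fit was repeated with every library scaled to the same median of log values. The fit was tested on simulated data with independent noise for each gene and no shift of whole libraries. It therefore did not test the scale on which the genotype counts depend. The labels call the replicates biological ones.

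The members and lists were chosen with earlier results of these data known. Values per library are given for up to 24 members called on both scales in 1 of 4 comparisons between groups, in the order of their smallest adjusted p; Tfe3 was added as the member of its role with the smallest adjusted p. From the further lists, genes with the smallest adjusted p were named. Alternatives were other thresholds, filters, pseudocounts, scalings, a replicate block, fits of 2 groups and leaving out each library.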

Additional observations from a re-analysis of the deposited data

Results flagged for a closer look

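In each group of 4 or 5 libraries, the gap of the highest or lowest TPM value to its nearest neighbour was set against the range of the group for the 25 members given per library. Of 100 such groups 7 had a value beyond the limit of Dixon's test, which chance gives in about 1 in 20 groups. Mouse 2 of the fasted MKO group was high in Gabarapl1 (242.5 TPM) and in Pik3c3 (9.09 TPM). Mouse 5 of the fasted MKO group was high in Lamp2 (30.4 TPM), and mouse 5 of the fed MKO group, a different animal, was high in Atg2b (4.55 TPM). Fasted WT mouse 4, the library with the largest mitochondrial share, was low in Nbr1 (12.9 TPM). In the fed WT group mouse 2 was low in Wipi1 (12.8 TPM) and mouse 3 low in Pik3r4 (1.14 TPM).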

How the results depend on the processing

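The fasting counts moved less than the genotype counts as deposited. At a threshold of 0.01, 20 genes were called in MKO and 20 in WT muscle as deposited, and with no filter 29 and 22. Settings other than leaving out 1 library lost 3 fasting calls in MKO and 10 in WT muscle as deposited, Ulk2 in WT among them. Leaving out 1 library gave 26 to 31 genes in MKO and 22 to 32 in WT muscle as deposited, and 29 to 33 and 31 to 34 relative to the median gene. Of the 29 fasting calls in MKO and 30 in WT muscle as deposited, 5 and 9 were lost without 1 of the libraries (3 of 32 and 3 of 34 relative to the median gene) and none changed sign. These were Atg16l1, Atg4c, Atg9a, Pink1 and Uvrag in MKO and Ambra1, Atg10, Atg12, Atg2a, Atg4a, Atg5, Map1lc3a, Pik3r4 and Uvrag in WT muscle (Atg4a, Gabarapl2 and Ulk2, and Atg10, Atg4d and Atg5, relative to the median gene), each lost without any 1 of 2 to 14 libraries, with adjusted p of 0.05 to 0.184.

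The genotype counts as deposited moved with several choices. In fasted muscle the 26 higher genes became 11 at a threshold of 0.01, 0 after quantile normalization, 10 in a fit of the 2 groups alone, and 14 to 33 without 1 library. With TPM recomputed without mitochondrial genes none was higher and 4 were lower. In fed muscle 1 gene became 0 at a threshold of 0.01, with no filter, after quantile normalization or without mitochondrial genes, 12 at a threshold of 0.1, 23 in a fit of the 2 groups alone, and 0 to 20 without 1 library. Relative to the median gene, the 1 gene in fasted muscle became 0 when libraries were scaled to genes of at least 5 TPM, and 0 to 1 without 1 library; fed muscle and the interaction stayed at 0 to 0.

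Without mitochondrial genes the fasted genotype change turned below 0 for Ulk2 (-0.0556), Atg101 (-0.0792), Rb1cc1 (-0.097), Becn1 (-0.20), Pik3c3 (-0.0288), Atg2a (-0.0346), Atg2b (-0.0433), Atg9a (-0.0664), Atg5 (-0.0164), Atg16l1 (-0.0105), Gabarap (-0.16), Nbr1 (-0.0849), Optn (-0.095), Lamp1 (-0.0777), Ctsb (-0.14) and Ctsd (-0.0382), and after quantile normalization for Becn1 (-0.0769) and Gabarap (-0.0208). Leaving out the mitochondrial genes is another scaling of the libraries. Why counts and signs moved under this and the other settings was not tested.

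Replicate numbers did not pair the mice: same-numbered mice of different groups deviated together with r between -0.14 and 0.15, over 0.1 in 2 of 17 pairs, and 3 correlated best with their own number. With a replicate block 29 genes were called for fasting in MKO, 30 in WT, 21 for genotype in fasted muscle and 0 in fed muscle, and 0 relative to the median gene in fasted muscle.

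TPM carry no depth, and groups of 4 and 5 mice limit what the interaction can show. Over 10% of the 75-base stretches of Becn1, Uvrag, Atg9a, Atg4a, Atg4d, Gabarapl1, Sqstm1, Bnip3, Bnip3l, Ctsl, Ctsb and Ctsd also occur in other genes, and their values are uncertain to that extent.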

Other observations

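Among the further pathway genes named by the same rule, Ddit4, Ctsa and Laptm4b kept a genotype change in fasted muscle relative to the median gene. Ddit4, which encodes an inhibitor of mTORC1, averaged 239 ± 56.7 TPM in fasted MKO and 85.3 ± 62.9 TPM in fasted WT muscle (SD), a log2 change of 1.77 as deposited (limma adjusted p = 0.00287) and 1.45 relative to the median gene (adjusted p = 0.022). Ctsa, a lysosomal carboxypeptidase, averaged 20.4 ± 1.98 TPM in fasted MKO and 13.995 ± 1.53 TPM in fasted WT muscle, with changes of 0.54 and 0.22. Laptm4b, a lysosomal membrane protein, averaged 20.9 ± 1.006 TPM in fasted MKO and 13.6 ± 2.93 TPM in fasted WT muscle, with changes of 0.63 and 0.31.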
